A study of Mus musculus with 6 samples.

Results

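Glutathione, peroxiredoxin and thioredoxin antioxidant genes were followed by RNA-seq in cultured mouse adipocytes that lacked Nelfb and in control cells. The set was defined by gene name, with earlier results of these data known. It held every protein coding row of the table whose symbol belongs to the glutathione transferase (Gsta to Gstz, Mgst), glutathione peroxidase (Gpx), peroxiredoxin (Prdx), thioredoxin and thioredoxin reductase (Txn1, Txn2, Txnrd) or superoxide dismutase (Sod) families, plus Gclc, Gclm, Gss, Gsr, Srxn1, Nfe2l2, Keap1, Nqo1 and Hmox1. This gave 51 genes of the 17924 in the table, of which 14362 were protein coding. By role they were 4 genes of glutathione synthesis and recycling, 19 soluble glutathione transferases, 3 microsomal transferases, 5 glutathione peroxidases, 8 peroxiredoxins and sulfiredoxin, 5 thioredoxins and thioredoxin reductases, 3 superoxide dismutases and 4 genes of the NRF2 pathway. Of the 51 genes, 49 averaged at least 10 reads per library and were tested. The other two, Gsta1 and Gstm6, fell under that limit.

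Glutathione is a small thiol peptide that cells keep at high concentration and use as an electron donor. Superoxide dismutases turn superoxide into hydrogen peroxide, and glutathione peroxidases and peroxiredoxins then reduce the peroxide, drawing electrons from glutathione or thioredoxin. Glutathione transferases join glutathione to reactive lipid breakdown products and foreign compounds. Many of these genes are known targets of NRF2, the transcription factor encoded by Nfe2l2, which Keap1 holds back for degradation until the cell meets oxidants or electrophiles. Adipocytes make reactive oxygen species during differentiation and store lipids that can be oxidised, and adipose tissue is a known source of the secreted peroxidase Gpx3.

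Nelfb encodes a subunit of the negative elongation factor, which holds RNA polymerase II paused close to promoters. Fibroblasts from the dorsal dermis of newborn C57BL/6J mice were kept for 14 days in adipocyte differentiation medium, and 3 libraries per genotype, described in the study as biological triplicates, were sequenced. Nelfb-/- cells came from Nelfb fl/fl Pdgfra-Cre+ mice. CTL cells came from Pdgfra-Cre+ mice that were either Nelfb wt/wt or Nelfb fl/wt, and which of these each CTL library was is not given, so all 6 libraries carried the Cre transgene and some CTL cells may have had a single floxed allele. The Pdgfra promoter drives Cre in fibroblast and preadipocyte lineages, so other cell types of the dermis would keep Nelfb. Each library held between 17.2 and 29.4 M reads (M, 1000000) on listed genes. Values are counts per M of these reads (CPM), always in the order of replicates 1, 2 and 3. The sources do not say that these numbers pair a CTL with a Nelfb-/- library, and they were not treated as pairs.

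The deleted gene followed the labels. Nelfb was at 17.3, 19.6 and 22.3 CPM in the CTL and 5.50, 3.90 and 5.55 CPM in the Nelfb-/- cells, which the fit put at -1.99 ± 0.22 on the log2 scale (± SE, adjusted p = 0.0050). The adipocyte markers Adipoq, Plin1 and Fabp4 were present in every library, and the summed level of 15 adipocyte markers was 43612, 40526 and 25581 CPM in the CTL and 18848, 27200 and 23204 CPM in the Nelfb-/- cells. Of these 15, Retn was called lower (log2 fold change -2.12, adjusted p = 0.013) and Lep higher (5.26, adjusted p = 0.014), and the other 13 did not pass. The sum of 14 fibroblast and preadipocyte markers was 6391, 5764 and 19718 CPM in the CTL and 10679, 34460 and 36749 CPM in the Nelfb-/- cells, and 2 of the 13 tested, Dlk1 and Dpp4, were called higher. The sum of 14 macrophage markers was 969, 497 and 265 CPM in the CTL and 8270, 2624 and 4482 CPM in the Nelfb-/- cells, with 13 of the 14 past the threshold and none at 0 in any library. Muscle markers summed to 13.1 to 16.3 CPM in the CTL and 64.7 to 134 CPM in the Nelfb-/- cells, and Schwann cell markers to 54.9 to 69.9 CPM and 127 to 164 CPM. One Schwann cell marker, Mbp, was called lower, at 29.1, 39.2 and 25.4 CPM in the CTL and 19.4, 11.4 and 10.04 CPM in the Nelfb-/- cells. Melanocyte markers summed to 48.6 to 73.7 CPM in the CTL and 51.9 to 168 CPM in the Nelfb-/- cells, mostly Mitf in the CTL, which did not pass (adjusted p = 0.47). The other 5 of these 6 markers passed as higher, with Tyrp1 at 0, 0 and 0.068 CPM in the CTL and 34.9, 11.5 and 20.03 CPM in the Nelfb-/- cells. Keratinocyte markers summed to 2.79 to 3.45 CPM in the CTL and 7.11 to 15.1 CPM in the Nelfb-/- cells, with 1 of the 4 tested past the threshold. Endothelial markers summed to 7.24 to 10.5 CPM and 8.09 to 22.0 CPM, with 1 of the 5 tested called higher. The part of these other cell types in the antioxidant values was not tested. In a principal component analysis the first component (59.9% of the variance) separated the genotypes, and CTL replicate 3 and Nelfb-/- replicate 1 lay at opposite ends of the second (27.7%). These 2 libraries stand apart in what follows. Where calls of set members turn on them, fits that omit 1 or both are also given (2 libraries a genotype in the latter). Fits of named genes outside the set are given from all 6 libraries alone, also where those genes turn on these libraries. In bulk RNA, fewer cells of a type and less RNA per cell cannot be told apart.

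The genes lower in Nelfb-/- cells were mostly glutathione transferases (7 of 17 soluble and 1 of 3 microsomal ones tested), with the peroxidases Gpx3 and Gpx4 and the reductase Txnrd3, and Gsto1 was the one member that rose. A gene was called when its adjusted p was at most 0.05 and its change at least 2-fold, the limits the study used. Of the 49 genes tested, 11 fell (22.4%), and 3.64% of all 16252 genes tested were called lower. Only Gsto1 rose (2.04%), and 7.58% of all genes tested were called higher. The fallen genes were Gpx3, Gpx4, Gstk1, Gstm4, Gstm5, Gstp1, Gstt1, Gstt3, Gstz1, Mgst3 and Txnrd3. All 3 Nelfb-/- values lay below all 3 CTL values for 19 of the 49 (38.8%, and 16.1% of all genes) and above them for 5 (10.2%, and 22.0% of all genes). The median log2 fold change was -0.30 over the 49 genes and 0.07 over all genes tested. Gstm2 and Prdx3 also passed the limit on adjusted p but changed by less than 2-fold. With 3 libraries against 3 an exact permutation test of 1 gene cannot go below p = 0.1, so single genes were judged by the fit across all genes alone.

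**Figure D1:**
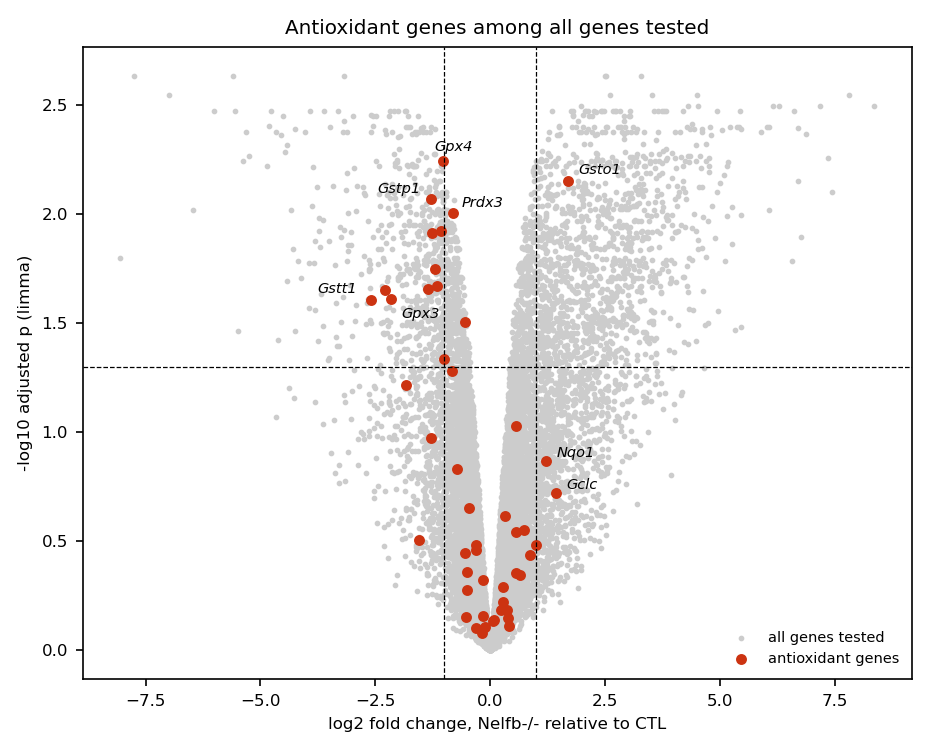
Log2 fold change (Nelfb-/- relative to CTL, x axis) against -log10 of the limma adjusted p (y axis) for all 16252 genes tested (grey) and the 49 antioxidant genes tested (red). Dashed lines mark the 2-fold and adjusted p limits. The 11 fallen antioxidant genes lie in the upper left and Gsto1 is the single one in the upper right, while Gclc and Nqo1 lie right of the fold limit but below the p limit.

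How firmly the falls stood differed between genes when each library was omitted in turn. The number of members that fell was 2, 3 and 12 without CTL replicate 1, 2 and 3 and 9, 5 and 0 without Nelfb-/- replicate 1, 2 and 3. The share of all genes called lower in the same fits was 1.49%, 1.36% and 4.75% and then 4.38%, 1.97% and 0.839%. In all of these fits the log2 fold change of each fallen gene stayed negative. Gstp1 lost its call only without Nelfb-/- replicate 3 (adjusted p = 0.054). Gpx4 lost it on the fold limit alone, at -0.995 without CTL replicate 3 and -0.97 without Nelfb-/- replicate 3. Gstm4 lost it without CTL replicate 1 or Nelfb-/- replicate 3 (adjusted p = 0.060 and 0.068), and Gstm5 without CTL replicate 1 or 2 or Nelfb-/- replicate 3 (adjusted p from 0.050 to 0.057). Gpx3, Gstk1, Gstt1, Gstt3 and Gstz1 passed only when CTL replicate 3 or Nelfb-/- replicate 1 was omitted, and their adjusted p without another library ran from 0.066 to 0.10. Mgst3 passed without CTL replicate 3 or Nelfb-/- replicate 2.

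By library, the 11 falls became 2 without CTL replicate 1, 3 without CTL replicate 2, 12 without CTL replicate 3, and 9, 5 and 0 without Nelfb-/- replicates 1, 2 and 3, while Gsto1 passed each time. The calls over all genes moved with them, from 1824 to 871, 758, 2479, 1955, 945 and 426. Without both CTL replicate 3 and Nelfb-/- replicate 1, 16 genes of the set passed as lower and 2 as higher, beside 9.37% and 17.7% of all genes tested. Those 2 libraries were left out for their distance from the rest of their group, so the p-values of that fit are too small.

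Of the 17 soluble glutathione transferases tested, 7 fell (41.2%, and 3.64% of all genes tested), 1 rose (5.88%, and 7.58% of all genes) and 9 did not pass, and their median log2 fold change was -1.06. The theta class had the steepest falls. Gstt1 (chr10:75783813-75798584) was at 15.3, 8.68 and 4.32 CPM in the CTL and 2.23, 1.11 and 0.979 CPM in the Nelfb-/- cells. Every Nelfb-/- value lay below the lowest CTL value, that of replicate 3, and the fit gave 6.02-fold lower expression (log2 fold change -2.59 ± 0.54, adjusted p = 0.025). Its neighbour Gstt3 (chr10:75774115-75781414) was at 7.94, 7.09 and 3.37 CPM in the CTL and 1.85, 0.811 and 0.979 CPM in the Nelfb-/- cells, 4.89-fold lower (log2 fold change -2.29 ± 0.46, adjusted p = 0.022). The third theta gene, Gstt2, was at 27.8, 31.8 and 3.81 CPM in the CTL and 13.6, 3.49 and 2.73 CPM in the Nelfb-/- cells. Here CTL replicate 3 overlapped the Nelfb-/- range, and the difference did not pass (log2 fold change -1.56 ± 0.96, adjusted p = 0.31). Without CTL replicate 3 the log2 fold change of Gstt2 was -2.54 (adjusted p = 0.055), and without Nelfb-/- replicate 1 as well it was -3.25. The last fit, whose p-values are too small, put Gstt2 past both limits, and called 9.37% of all genes tested lower.

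Gstz1 (chr12:87147165-87164723), the zeta-class enzyme that also serves as maleylacetoacetate isomerase in tyrosine breakdown, was at 271, 264 and 138 CPM in the CTL and 85.4, 84.2 and 81.6 CPM in the Nelfb-/- cells. The 3 Nelfb-/- values were close to each other and all below CTL, whose replicate 3 was the nearest (log2 fold change -1.36 ± 0.27, adjusted p = 0.022). Gstk1 (chr6:42245935-42250447), the kappa-class enzyme of mitochondria and peroxisomes, was at 12.8, 10.6 and 8.40 CPM in the CTL and 5.03, 4.25 and 4.28 CPM in the Nelfb-/- cells. The groups did not overlap and the level was 2.30-fold lower (log2 fold change -1.20 ± 0.22, adjusted p = 0.018).

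The pi-class gene Gstp1 (chr19:4035407-4037985), one of the most abundant transferases of many tissues, was at 122, 145 and 99.4 CPM in the CTL and 46.1, 56.3 and 47.8 CPM in the Nelfb-/- cells. No Nelfb-/- library came near the lowest CTL library, and the level was 2.42-fold lower (log2 fold change -1.28 ± 0.18, adjusted p = 0.0086). Its neighbour Gstp2 shares 97.1% of its residues and 98.1% of its coding bases, and how reads that match both were assigned is not stated, so the split between the pair is uncertain. Gstp2 itself was at 0.829, 1.70 and 0.579 CPM in the CTL and 0.175, 0.335 and 0.212 CPM in the Nelfb-/- cells (adjusted p = 0.061). It passed without CTL replicate 3, with a log2 fold change of -2.15 (adjusted p = 0.040). Gstp2 passed in no other fit that omitted 1 library and tested it (adjusted p from 0.10 to 0.19). Summed, the pair was at 123.3, 147 and 100.03 CPM in the CTL and 46.2, 56.6 and 48.0 CPM in the Nelfb-/- cells, with a log2 fold change of -1.28 (adjusted p = 0.0087). Gstp3, only 70% identical to Gstp1, stayed under 1 CPM in all 6 libraries.

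The mu class is encoded as a cluster on chromosome 3, and 2 of its members fell. Gstm5 (chr3:107895821-107898686) fell 2.39-fold, from 22.1, 23.5 and 23.7 CPM in CTL to 7.39, 11.1 and 10.8 CPM in the Nelfb-/- cells (log2 fold change -1.26 ± 0.20, adjusted p = 0.012). Gstm4 (chr3:108040408-108044894) fell 2.09-fold, from 15.6, 12.9 and 14.7 CPM to 7.02, 7.22 and 6.32 CPM (log2 fold change -1.06 ± 0.17, adjusted p = 0.012). Both had narrow spreads within each genotype and a wide gap between them. Gstm2 was at 73.2, 69.5 and 78.3 CPM in the CTL and 48.6, 54.1 and 49.8 CPM in the Nelfb-/- cells, also without overlap, but its 1.45-fold difference was under the fold limit (log2 fold change -0.54 ± 0.12, adjusted p = 0.031). A row named as its processed copy, Gstm2-ps1, was listed at 45.8, 39.2 and 17.9 CPM in the CTL and 70.3, 15.1 and 15.9 CPM in the Nelfb-/- cells. The sum of both had an adjusted p of 0.32. The copy was matched by name alone, and its sequence was not compared. Across libraries it was high and low where Gstm1, given next, was, and not where Gstm2 was. The sum may thus hold reads of genes other than Gstm2. Gstm1, the most abundant of the cluster per kb of exon, was at 236, 219.8 and 90.7 CPM in the CTL and 363, 86.2 and 81.2 CPM in the Nelfb-/- cells. Its highest and its lowest value both came from Nelfb-/- libraries, replicates 1 and 3, and the difference did not pass (log2 fold change -0.30 ± 0.66, adjusted p = 0.79). Its log2 fold change was -1.003 without Nelfb-/- replicate 1 (adjusted p = 0.16) and -1.45 without CTL replicate 3 as well. The fit without both put Gstm1 past both limits, but its p-values are too small. Gstm7 lay between 0.806 and 2.07 CPM and did not pass (adjusted p = 0.36), and Gstm6 had between 1 and 14 reads a library. Mu-class members share 63.4% to 79.8% of their residues, and reads were not summed over them.

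Gsto1 (chr19:47854970-47864790) was the exception to the fall. It encodes the omega-class transferase, which works with a cysteine and can reduce dehydroascorbate. Its level was 125, 122 and 135 CPM in the CTL and 302, 506 and 457 CPM in the Nelfb-/- cells. The CTL values were close together and the lowest Nelfb-/- value, that of replicate 1, was still more than 2-fold above them, giving 3.24-fold higher expression (log2 fold change 1.70 ± 0.22, adjusted p = 0.0070). The call held with each of the 6 libraries left out in turn, the only one of the 12 for which this was so, with log2 fold changes from 1.55 to 1.92. Replicates 2 and 3, the highest for Gsto1, also had the highest sums of fibroblast and preadipocyte markers, and the part of that difference was not tested. Gsto2, encoded next to it and 56.9% identical, was at 2.75, 2.24 and 2.45 CPM in the CTL and 1.99, 1.22 and 1.31 CPM in the Nelfb-/- cells, fitted lower but not past the threshold (log2 fold change -0.73 ± 0.30, adjusted p = 0.15).

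Of the alpha-class transferases, which handle reactive aldehydes from lipid peroxidation, the tested Gsta3 and Gsta4 did not pass with all 6 libraries. Gsta3 was at 171, 172 and 30.6 CPM in the CTL and 173, 37.3 and 46.2 CPM in the Nelfb-/- cells, so that CTL replicates 1 and 2 and Nelfb-/- replicate 1 were high and the other three libraries low (log2 fold change -0.53 ± 0.85, adjusted p = 0.70). For Gsta3 the omission of CTL replicate 3 gave -1.36 (adjusted p = 0.20), that of Nelfb-/- replicate 1 gave -1.22 (adjusted p = 0.31) and that of both gave -2.04. The fit without both put Gsta3 past both limits, but its p-values are too small. Gsta4 was at 15.2, 13.8 and 5.95 CPM in the CTL and 35.8, 10.6 and 7.51 CPM in the Nelfb-/- cells (adjusted p = 0.71). Gsta1, left out of the test for its low counts, had 1.5, 1 and 2.71 reads in CTL and 18.4, 6.55 and 6.96 reads in Nelfb-/- cells. All 3 CTL values were at or under 3 reads, the limit that a count of 0 allows, so no fold is given. Reads here are the deposited values over the worth of 1 read, which need not be whole.

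**Figure D2:**
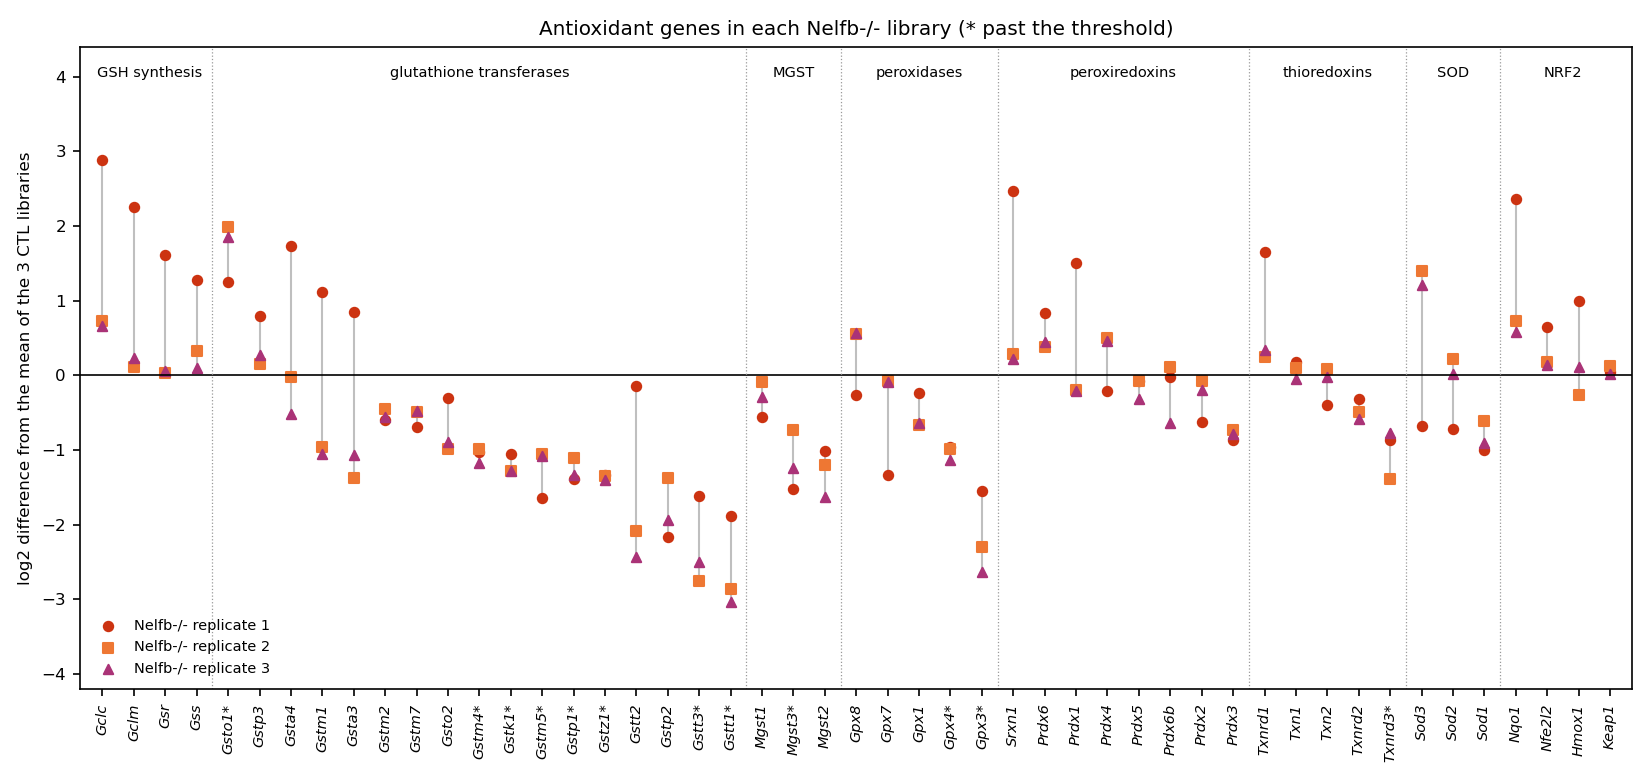
Log2 difference of each Nelfb-/- library from the mean of the 3 CTL libraries (y axis, on log2(reads + 1)) for the 49 antioxidant genes tested (x axis, grouped by role). Circles, squares and triangles are Nelfb-/- replicates 1, 2 and 3, grey lines join them, and an asterisk marks genes past the threshold. Replicate 1 sits far above the other two for Gclc, Gclm, Gsr, Srxn1, Prdx1, Txnrd1, Gsta4 and Nqo1, and also for Gsta3, Gstm1 and Gstt2, while the 3 replicates lie close together for fallen genes such as Gpx4 and Gstz1.

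Microsomal transferases sit in membranes. Mgst3 (chr1:167371966-167393841) was at 166, 184 and 138 CPM in the CTL and 56.1, 96.9 and 68.5 CPM in the Nelfb-/- cells. The groups were apart and the level fell 2.24-fold (log2 fold change -1.16 ± 0.23, adjusted p = 0.021). Mgst2 was at 13.03, 18.9 and 5.68 CPM in the CTL and 5.55, 4.83 and 3.59 CPM in the Nelfb-/- cells, which are narrowly apart at CTL replicate 3, and did not pass (log2 fold change -1.28 ± 0.45, adjusted p = 0.11). Without CTL replicate 3 its log2 fold change was -1.77 (adjusted p = 0.014). Mgst2 did not pass when any other single library was omitted (adjusted p from 0.12 to 0.29). Mgst1, the most abundant of them per kb of exon, was at 579, 627 and 463 CPM in the CTL and 375, 521 and 452 CPM in the Nelfb-/- cells, with overlapping ranges (adjusted p = 0.35).

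Glutathione peroxidases reduce hydrogen and lipid peroxides with glutathione. Gpx1, Gpx3 and Gpx4 carry selenocysteine in the active site, written in the messenger RNA as an in-frame TGA, whereas Gpx7 and Gpx8 of the endoplasmic reticulum have a cysteine codon there. The coding windows around this codon are shown because they are what divides the family. The codon is in capitals, and positions count codons from the start codon of the GENCODE transcript on GRCm38 (codon 47 in Gpx1, 73 in Gpx3, 73 in Gpx4, 56 in Gpx7 and 79 in Gpx8, the last 2 found by alignment with Gpx4).
Gpx1: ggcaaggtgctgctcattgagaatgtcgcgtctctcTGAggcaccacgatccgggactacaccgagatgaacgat
Gpx3: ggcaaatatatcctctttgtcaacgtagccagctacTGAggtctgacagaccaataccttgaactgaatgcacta
Gpx4: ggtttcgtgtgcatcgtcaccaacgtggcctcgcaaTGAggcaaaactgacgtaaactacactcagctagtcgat
Gpx7: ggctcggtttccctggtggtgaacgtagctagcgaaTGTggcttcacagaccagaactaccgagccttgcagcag
Gpx8: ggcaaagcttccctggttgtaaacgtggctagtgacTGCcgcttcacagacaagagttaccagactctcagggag
The 2 peroxidases that fell, Gpx3 and Gpx4, both carried TGA, but so did Gpx1, which did not pass with all 6 libraries.

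Gpx3 (chr11:54902453-54910377), the secreted form, had the highest level of all 51 genes in CTL cells per kb of exon, with a mean of 1131 CPM per kb, and was second to Hmox1 in Nelfb-/- cells, with 246 CPM per kb. Its level was 2447, 2645 and 1059 CPM in the CTL and 648, 386 and 305 CPM in the Nelfb-/- cells. The highest Nelfb-/- library was below the lowest CTL library, replicate 3, which itself was far below the other two, and the fit gave 4.47-fold lower expression (log2 fold change -2.16 ± 0.45, adjusted p = 0.024). CTL replicate 3 also had the lowest adipocyte marker sum of the CTL libraries, and its part in the spread was not tested.

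Gpx4 (chr10:80047166-80056439) encodes the peroxidase that repairs oxidised membrane lipids and guards against ferroptosis. It was at 87.96, 92.5 and 96.02 CPM in the CTL and 47.6, 46.3 and 42.02 CPM in the Nelfb-/- cells, tight in both genotypes, and its 2.04-fold fall lay just inside the fold limit (log2 fold change -1.03 ± 0.12, adjusted p = 0.0057). Most reads of this sequence were listed on a processed copy, Gpx4-ps2 (chr10:45875291-45876086), with 553, 577 and 562 CPM in the CTL and 291, 287 and 255 CPM in the Nelfb-/- cells. Gene and copy cannot be told apart by these reads, and their sum gave a log2 fold change of -1.02 (adjusted p = 0.0093). The CTL mean of Gpx4 alone was 53.5 CPM per kb, so its level relative to other genes is understated if the reads of the copy belong to it.

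Of the other peroxidases, Gpx1, the main cytosolic form, was at 506, 692 and 224 CPM in the CTL and 363, 269.7 and 275 CPM in the Nelfb-/- cells. CTL replicate 3 lay below all the Nelfb-/- libraries and CTL replicates 1 and 2 above them (log2 fold change -0.51 ± 0.41, adjusted p = 0.44). Omitting CTL replicate 3 took Gpx1 to -0.98 (adjusted p = 0.033), just under the fold limit, and omitting Nelfb-/- replicate 1 as well took it to -1.12. The fit without both put Gpx1 past both limits, but its p-values are too small. Gpx7 ranged from 7.21 to 33.7 CPM and Gpx8 from 35.0 to 62.5 CPM, with overlap in both (adjusted p = 0.53 and 0.51).

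**Figure D3:**
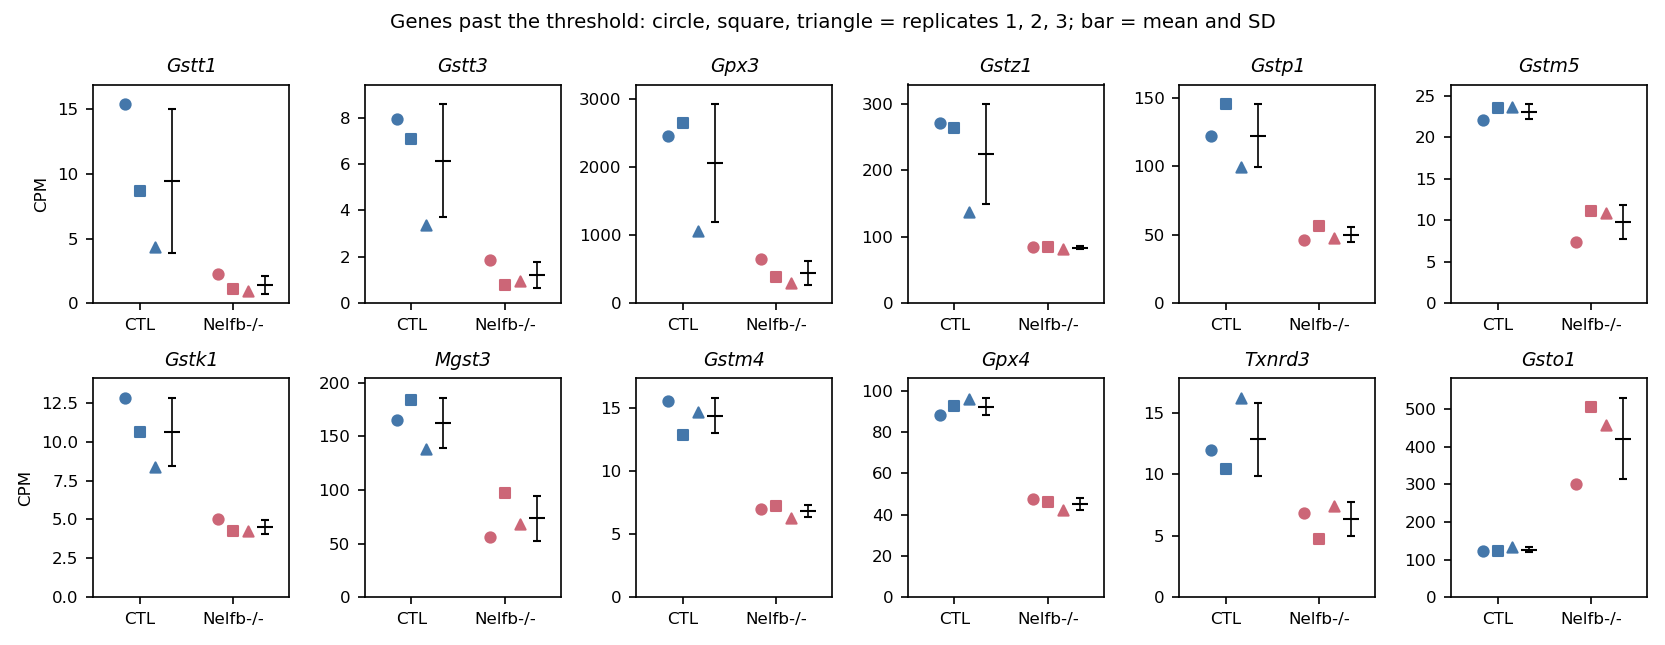
CPM (y axis, from 0) of the 12 antioxidant genes past the threshold in CTL (blue) and Nelfb-/- cells (red). Circles, squares and triangles are replicates 1, 2 and 3, and bars give the mean and SD of 3 libraries. All Nelfb-/- points lie below all CTL points in the first 11 panels and above them for Gsto1, and CTL replicate 3 is the lowest CTL point for Gstt1, Gstt3, Gpx3, Gstz1, Gstp1, Gstk1 and Mgst3.

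Peroxiredoxins reduce peroxides with thioredoxin, and none of the 8 genes of this group passed both limits. Prdx3, the mitochondrial form, was at 168, 169.8 and 158 CPM in the CTL and 90.3, 99.1 and 95.8 CPM in the Nelfb-/- cells, with wide separation and little spread, but its 1.74-fold difference was under the fold limit (log2 fold change -0.80 ± 0.12, adjusted p = 0.0099). Prdx6, which uses glutathione and also acts on phospholipids, was at 323, 355 and 286 CPM in the CTL and 571, 417 and 437 CPM in the Nelfb-/- cells, higher in each Nelfb-/- library but not past the limits (log2 fold change 0.55 ± 0.19, adjusted p = 0.094). Prdx2 of the cytosol, Prdx4 of the endoplasmic reticulum and Prdx5 of mitochondria and peroxisomes had overlapping ranges, with adjusted p = 0.33, 0.65 and 0.48. The 95% intervals of their log2 fold changes were -0.75 to 0.16, -0.56 to 1.06 and -0.47 to 0.17. Prdx6b, 86.2% identical to Prdx6, stayed between 0.51 and 1.63 CPM. The processed copy Prdx2-ps1 was at 3.996 to 6.80 CPM, and adding it left Prdx2 at -0.30 (adjusted p = 0.31).

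**Figure D4:**
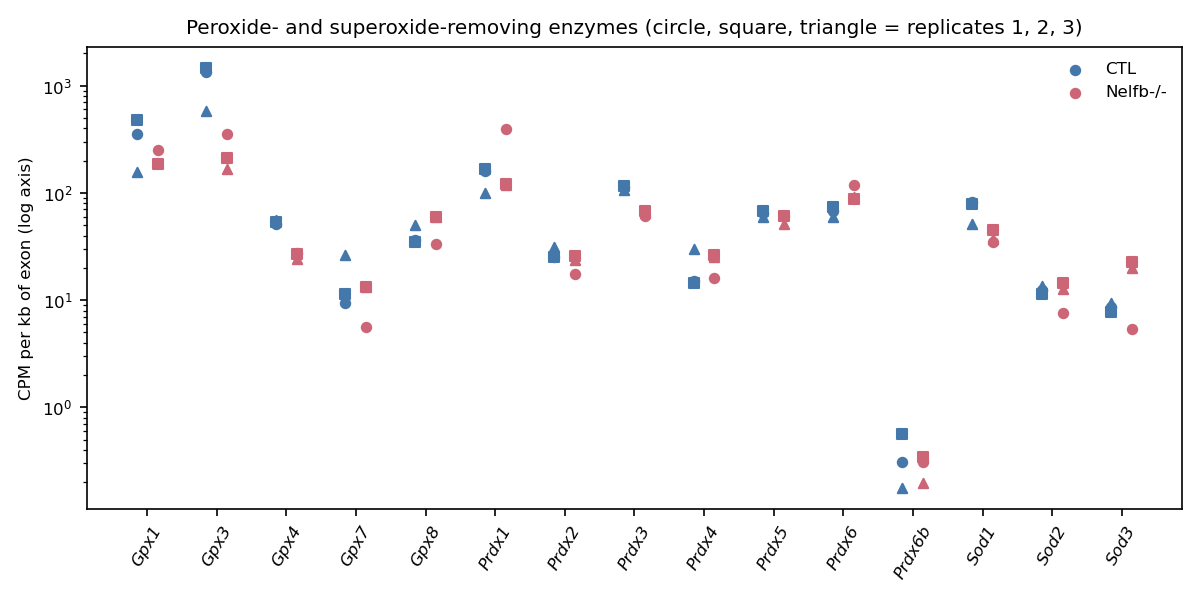
CPM per kb of exon (y axis, log scale) of the glutathione peroxidases, peroxiredoxins and superoxide dismutases in CTL (blue) and Nelfb-/- (red) libraries, with circles, squares and triangles for replicates 1, 2 and 3. Gpx3 is the highest in CTL cells and overlaps Gpx1 in Nelfb-/- cells, and Gpx4 and Prdx3 show tight, separated groups.

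Thioredoxins and their reductases supply electrons to peroxiredoxins. The reductases carry selenocysteine as the last residue but one, again written as TGA (capitals), and the end of each coding sequence is shown up to the codon before the stop because the whole family shares it, while Txnrd3 alone passed the threshold. These are codons 498 of 499 in Txnrd1, 526 of 527 in Txnrd2 and 614 of 615 in Txnrd3.
Txnrd1: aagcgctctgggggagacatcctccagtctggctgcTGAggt
Txnrd2: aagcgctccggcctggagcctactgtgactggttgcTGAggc
Txnrd3: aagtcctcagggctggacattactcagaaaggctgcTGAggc
Txnrd3 (chr6:89643988-89675529), a thioredoxin and glutathione reductase best known from testis, was at 11.95, 10.4 and 16.2 CPM in the CTL and 6.88, 4.77 and 7.38 CPM in the Nelfb-/- cells. The groups were apart, and the 2.02-fold fall lay just inside both limits (log2 fold change -1.01 ± 0.26, adjusted p = 0.046). This call was lost whichever of the 6 libraries was left out, with adjusted p from 0.057 to 0.13. Txnrd1, the cytosolic reductase, was at 179, 194 and 106 CPM in the CTL and 485, 184 and 195 CPM in the Nelfb-/- cells (log2 fold change 0.75 ± 0.43, adjusted p = 0.28). Txnrd2, the mitochondrial reductase, was at 10.3, 9.49 and 15.3 CPM in the CTL and 9.22, 8.16 and 7.59 CPM in the Nelfb-/- cells (adjusted p = 0.22). Cytosolic Txn1 was at 103, 112 and 96.2 CPM in the CTL and 117, 111 and 99.9 CPM in the Nelfb-/- cells, and the 95% interval of its log2 fold change was -0.24 to 0.39. Mitochondrial Txn2 was at 90.01, 94.4 and 143 CPM and 81.4, 114 and 105 CPM (95% interval -0.65 to 0.44).

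None of the superoxide dismutases passed. Sod1, the cytosolic copper and zinc enzyme, was at 327, 315 and 204 CPM in the CTL and 138, 181 and 147 CPM in the Nelfb-/- cells. The groups were apart but its log2 fold change of -0.84 ± 0.23 missed both limits (adjusted p = 0.052), and the fit that omitted CTL replicate 3 gave -1.06 (adjusted p = 0.012). Sod1 did not pass when any other single library was omitted (adjusted p from 0.090 to 0.18). Mitochondrial Sod2 was at 125, 113 and 137 CPM in the CTL and 75.7, 145 and 126 CPM in the Nelfb-/- cells (95% interval -0.77 to 0.45). Extracellular Sod3 was at 32.3, 28.7 and 35.5 CPM in the CTL and 19.96, 84.6 and 74.2 CPM in the Nelfb-/- cells, low in Nelfb-/- replicate 1 and above every CTL library in the other two (adjusted p = 0.45). Without Nelfb-/- replicate 1 the log2 fold change of Sod3 was 1.30 (adjusted p = 0.011), past both limits. Sod3 passed with no other single library omitted, and without Nelfb-/- replicate 2 it was at 0.26 (adjusted p = 0.81).

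Several genes that make and recycle glutathione or restore peroxiredoxins had 1 library far above the rest. Gclc, the catalytic subunit of the enzyme that limits glutathione synthesis, was at 119, 134 and 54.7 CPM in the CTL and 704, 158 and 151 CPM in the Nelfb-/- cells. Its partner Gclm, the modifier subunit, was at 139.8, 152 and 77.8 CPM in the CTL and 565, 128 and 139 CPM in the Nelfb-/- cells. Sulfiredoxin, Srxn1, which restores overoxidised peroxiredoxins, was at 194, 225 and 110.2 CPM in the CTL and 935, 207 and 197 CPM in the Nelfb-/- cells. In all of these, Nelfb-/- replicate 1 was the highest of the 6 libraries by a wide margin, and replicates 2 and 3 lay among the CTL values for Gclm and Srxn1 and slightly above them for Gclc.

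Prdx1, the abundant cytosolic peroxiredoxin, was at 486, 504 and 301 CPM in the CTL and 1194, 365 and 363 CPM in the Nelfb-/- cells. Gsr, which returns oxidised glutathione to its reduced form, was at 60.1, 67.2 and 37.8 CPM in the CTL and 164, 54.6 and 55.9 CPM in the Nelfb-/- cells. Nqo1, the quinone reductase often read as a marker of NRF2 activity, was at 20.1, 28.9 and 19.8 CPM in the CTL and 117, 37.4 and 33.7 CPM in the Nelfb-/- cells, and here, as for Gclc, all 3 Nelfb-/- values exceeded CTL. Gss, which completes glutathione, was at 32.3, 33.6 and 22.7 CPM in the CTL and 70.5, 36.7 and 31.3 CPM in the Nelfb-/- cells. The largest of these differences by fit was that of Gclc, with a log2 fold change of 1.42 ± 0.66, and it did not pass (adjusted p = 0.19). For Nqo1 the log2 fold change was 1.22 ± 0.48 (adjusted p = 0.14).

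Nelfb-/- replicate 1 was at least 2-fold above each of the other five libraries for 8 of the 49 genes (16.3%), namely Gclc, Gclm, Gsr, Gsta4, Nqo1, Prdx1, Srxn1 and Txnrd1, and for 453 of all 16252 genes tested (2.79%). In these 8 it exceeded the mean of replicates 2 and 3 by 2.56-fold (Txnrd1) to 4.62-fold (Srxn1). Without replicate 1 the log2 fold changes were 0.70 for Gclc (adjusted p = 0.25), 0.65 for Nqo1 (adjusted p = 0.084), 0.17 for Gclm, 0.26 for Srxn1, 0.30 for Txnrd1 and 0.05 for Gsr, and -0.20 for Prdx1 and -0.27 for Gsta4. Without CTL replicate 3 as well they turned negative for Gclm, Srxn1 and Gsr too. The same replicate 1 had the highest level of all 14 macrophage markers, with Lyz2 at 3038 CPM and 911 and 1583 CPM in replicates 2 and 3. It also had the highest level of all 8 muscle markers tested, of 4 of 5 endothelial and of 4 of 6 melanocyte markers, and the lowest adipocyte marker sum of the 6 libraries. The part of this difference between libraries in the antioxidant values was not tested.

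The regulators Nfe2l2 and Keap1 varied less. Nfe2l2 was at 100.3, 112 and 105 CPM in the CTL and 165, 119 and 117 CPM in the Nelfb-/- cells, slightly higher in each Nelfb-/- library and highest in replicate 1 (log2 fold change 0.32 ± 0.17, adjusted p = 0.24). Keap1 was at 69.00, 67.9 and 71.5 CPM in the CTL and 71.9, 75.6 and 70.3 CPM in the Nelfb-/- cells, with a 95% interval of its log2 fold change of -0.20 to 0.33. Hmox1, the heme oxygenase that NRF2 and other factors can induce, was at 392, 482 and 445 CPM in the CTL and 878, 364 and 473 CPM in the Nelfb-/- cells (adjusted p = 0.60).

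**Figure D5:**
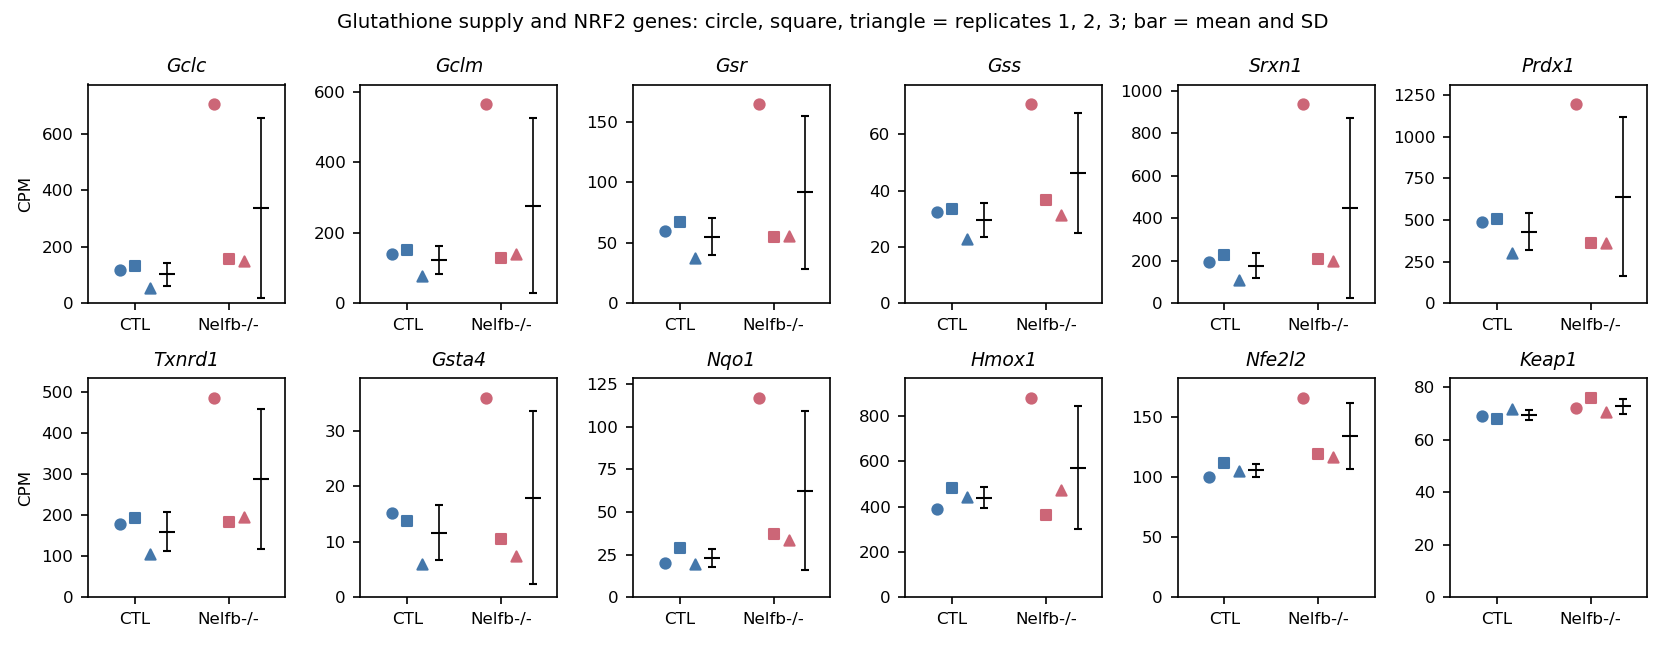
CPM (y axis, from 0) of 12 genes of glutathione supply and the NRF2 pathway in CTL (blue) and Nelfb-/- cells (red). Circles, squares and triangles are replicates 1, 2 and 3, and bars give the mean and SD of 3 libraries. Nelfb-/- replicate 1 is the highest point in every panel but that of Keap1, and the other Nelfb-/- points both lie above all CTL points only for Gclc, Nqo1 and Nfe2l2.

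Because these genes moved together in 1 library, their promoters were read for the core of the antioxidant response element, TGACNNNGC, on both strands of the RefSeq window (GRCm38.p6) from 250 bases before to 50 bases after the start. Only 1 start was read per gene, the one nearest its listed 5' end, at most 3802 bases from it (Gstp2). Which start these cells used is not known, so a gene without a match may hold one at another start. A window was found for 43 of the 51 genes, and 8 of these (18.6%) held at least 1 match, as did 1644 of 11258 windows of protein coding genes in the table (14.6%). The share was thus near the background. The matches were in Gclm, Gsta3, Gstm5, Mgst1, Nfe2l2, Prdx1, Sod1 and Srxn1, of which 1 (Gstm5) had fallen. Of the 8 genes high in Nelfb-/- replicate 1, 5 had a window (Gclm, Nqo1, Prdx1, Srxn1 and Txnrd1), and 3 of these (Gclm, Prdx1 and Srxn1) held a match. These 8 genes were picked by their values, no list picked in the same way was counted, and the share was not tested. The 250 bases before the start of Gclm (chr3:122245307-122245556, + strand) and of Prdx1 (chr4:116685349-116685598, + strand) are shown because each holds a match and both genes were highest in that library. Capitals mark the match, which lies on the opposite strand and begins 134 bases before the start of Gclm and 133 bases before that of Prdx1.
Gclm: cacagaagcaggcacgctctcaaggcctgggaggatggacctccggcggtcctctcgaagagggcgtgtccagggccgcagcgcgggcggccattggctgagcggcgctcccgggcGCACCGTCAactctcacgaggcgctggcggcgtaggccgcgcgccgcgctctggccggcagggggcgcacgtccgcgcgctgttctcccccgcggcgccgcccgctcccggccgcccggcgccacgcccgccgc
Prdx1: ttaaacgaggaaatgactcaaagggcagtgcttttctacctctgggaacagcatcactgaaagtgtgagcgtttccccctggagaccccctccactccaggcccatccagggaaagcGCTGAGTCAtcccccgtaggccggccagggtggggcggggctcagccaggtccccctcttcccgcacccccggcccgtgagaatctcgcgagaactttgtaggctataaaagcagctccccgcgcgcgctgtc
In Srxn1 the match, GCTAGGTCA, begins 28 bases after the start. A match describes the letters of the window and not a bound site.

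Other genes of the same chemistry were mostly not past the threshold. Of all genes tested 7.58% were called higher and 3.64% lower, so that lists this small would hold few calls at those shares. Of 18 genes of NADPH supply none was called, and neither was any of 26 glutaredoxins and proteins of the thioredoxin fold or of 22 other antioxidant genes such as methionine sulfoxide reductases and sestrins. In the last list, Cat, the peroxisomal catalase, was at 3439.6, 3473 and 559.7 CPM in the CTL and 2282, 687 and 748 CPM in the Nelfb-/- cells, low in CTL replicate 3 as in Nelfb-/- replicates 2 and 3 (adjusted p = 0.53). With CTL replicate 3 and Nelfb-/- replicate 1 so far from their groups, the missing call does not show that Cat was unchanged. No fit of Cat without them is given. Txnip, which binds and inhibits thioredoxin, was at 2121, 2249 and 914 CPM in the CTL and 906, 396 and 504 CPM in the Nelfb-/- cells, lower by fit but not past the limit (log2 fold change -1.53 ± 0.46, adjusted p = 0.071). Its CTL replicate 3 lay far below CTL replicates 1 and 2, and no fit of Txnip without it is given.

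Of 25 genes of glutathione supply, breakdown and export 4 fell (16%, and 3.64% of all genes tested) and none rose (7.58% of all genes). Cbs, which begins the route from homocysteine to cysteine, was at 20.7, 17.3 and 5.75 CPM in the CTL and 1.66, 1.05 and 1.22 CPM in the Nelfb-/- cells (log2 fold change -3.26 ± 0.51, adjusted p = 0.012). Ahcy, which releases homocysteine, had a log2 fold change of -2.02 (adjusted p = 0.044), Dpep1, a peptidase of glutathione breakdown, one of -1.76 (adjusted p = 0.018) and Slc25a39, a mitochondrial glutathione carrier, one of -1.11 (adjusted p = 0.011). Slc7a11, the cystine importer, was at 32.1, 28.6 and 15.3 CPM in the CTL and 114, 4.90 and 6.50 CPM in the Nelfb-/- cells, thus highest in Nelfb-/- replicate 1 and lowest in the other two (adjusted p = 0.74).

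Among 34 partners and targets of NRF2 outside the set 1 rose (2.94%, and 7.58% of all genes) and 2 fell (5.88%, and 3.64% of all genes). Ugdh rose (log2 fold change 1.05, adjusted p = 0.022) and Nfe2l3 (-2.97, adjusted p = 0.0062) and Maff (-1.45, adjusted p = 0.016), which encode relatives and partners of NRF2, fell. In this list 5 genes (14.7%) were at least 2-fold higher in Nelfb-/- replicate 1 than in each other library, as were 2.79% of all genes. Of 12 genes of selenocysteine insertion and selenium handling 1 was called in each direction (8.33%, and 7.58% of all genes higher and 3.64% lower). Lrp8 rose (log2 fold change 1.68, adjusted p = 0.049) and Lrp2 fell (-2.61, adjusted p = 0.031). Both are membrane receptors that can take up selenium carriers. Of 15 further selenoproteins 1 (6.67%, and 7.58% of all genes), Dio3, a thyroid hormone deiodinase, rose (log2 fold change 4.23, adjusted p = 0.012). Of 14 further genes of the transferase superfamilies 1 rose (7.14%, and 7.58% of all genes) and 2 fell (14.3%, and 3.64% of all genes). Alox5ap rose (2.77, adjusted p = 0.012) and Clic5 (-1.9997, adjusted p = 0.020) and Ptges, a prostaglandin E synthase (-1.74, adjusted p = 0.0085), fell.

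Of 15 genes tested that encode enzymes producing reactive oxygen species, or parts of them, 6 rose (40%, and 7.58% of all genes tested) and 1 fell (6.67%, and 3.64% of all genes). Among the risen genes were Ncf1 (log2 fold change 3.33, adjusted p = 0.0048) and Cybb (2.65, adjusted p = 0.039), which encode parts of the phagocyte NADPH oxidase. Cybb, its catalytic subunit, was at 23.9, 13.2 and 6.49 CPM in the CTL and 175, 41.6 and 69.3 CPM in the Nelfb-/- cells, highest in the library with the highest macrophage marker sum, and the part of macrophages in these values was not tested. The gene that fell was Aoc3, an amine oxidase of adipocytes that yields hydrogen peroxide, at 879, 809 and 931 CPM in the CTL and 301, 402 and 294 CPM in the Nelfb-/- cells (log2 fold change -1.40 ± 0.19, adjusted p = 0.0079).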

How the data were processed

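RNA-seq libraries of CTL (3) and Nelfb-/- (3) cells were analysed. Per the labels' processing notes the authors used the mm10 build, STAR 2.7 and Partek 9.0.20.0202, and the paper describes DESeq2 with default settings for alignment and ANOVA for testing. How reads with several matches and strand were treated is not given in the sources used here. The deposited values are CPM, made by the authors from gene counts, with 0.0001 added to each value. After this was subtracted each library summed to 1000000. The CPM worth of 1 read gave depths of 17.2 to 29.4 M reads (M, 1000000), so that 3 reads, the limit a count of 0 allows, were 0.102 to 0.175 CPM. Only 72.4% to 74.9% of values up to 20 reads were whole within 0.05 reads, so no count test was run. These limits cover counting error only.

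Values were put on a common depth of 22.3 M reads, genes averaging under 10 reads were left out, and log2(reads + 1) of 16252 genes was tested with limma 3.58.1 (lmFit, eBayes with variance trend, R 4.3.3, Benjamini-Hochberg adjustment over all genes). Fold changes are on that scale, which understates low genes, and ± values are SE of the fit. The procedure was run on simulated data in which genes varied independently. No shift shared by the genes of 1 library was simulated, so calls that turn on 1 library were not checked by it. The table's end coordinate is 1 past the last base and was corrected. It then matched GENCODE vM21 (GRCm38) for 99.0% of 17520 genes. Coding sequences and identities came from GENCODE, promoters from RefSeq. Processed copies were matched to members by name alone. The members, and the lists and markers, were chosen with earlier results of these data known. Genes past the threshold, the most abundant and the defining members of each role were given in full. Gss, Gsta1, Gsta3, Gsta4, Gstm2, Gstp2, Gstt2, Gsto2, Prdx3 and Txnrd2 were added after their values were seen. Alternatives were another pseudocount, filter, scaling, variance model and threshold, voom weights, summed copies, a replicate block and leaving out libraries.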

Additional observations from a re-analysis of the deposited data

How the results depend on the processing

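Pseudocounts of 0.5 and 5 reads, median-of-ratios scaling, a fit with no variance trend and voom weights gave 1 member higher and 9 to 11 lower. With no filter, or with 10 reads needed in any library, 2 members were called higher, the second being Gsta1. Under median-of-ratios scaling the median over all genes was -0.0016 and that over the members -0.37, and Keap1 turned to -0.0051. By adjusted p alone, 947 genes and 13 members were lower.

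Leaving out 1 library gave 426 to 2479 genes past the threshold, 290 to 1703 of them higher and 136 to 776 lower. For the members it gave 1 to 13 past the threshold, 1 to 2 higher and 0 to 12 lower, with a median of -0.35 to -0.20. The cause was not tested.

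With CTL replicate 3 and Nelfb-/- replicate 1 both left out, a choice made after seeing the data, 4383 genes passed (2864 higher, 1519 lower), as did 18 members (2 higher, 16 lower), with a member median of -0.44. Gpx1, Gsta3, Gstm1, Gstp2, Gstt2 and Mgst2 were then added as lower and Sod3 as higher, and Txnrd3 was lost. Over these fits and those without 1 library, members not past the threshold with all 6 libraries changed sign, with log2 fold changes of -0.13 to 1.24 for Gclm, -0.79 to 0.36 for Gpx7, -0.20 to 0.84 for Gsr, -0.70 to 0.85 for Gsta4, -1.45 to 0.077 for Gstm1, -0.71 to 0.67 for Gstp3, -0.079 to 0.56 for Hmox1, -0.44 to 0.65 for Prdx1, -0.66 to 0.22 for Prdx6b, -0.35 to 0.18 for Sod2, -0.050 to 1.38 for Srxn1, -0.028 to 0.14 for Txn1 and -0.23 to 0.25 for Txn2.

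The sources do not say whether replicate numbers mark pairs. Deviations from the group means correlated at 0.52 for number 1, -0.39 for number 2 and 0.52 for number 3, and CTL replicates 2 and 3 correlated better with another number. With 3 libraries a group these correlations can neither show nor exclude pairs. A replicate block gave 2175 genes (1505 higher, 670 lower) and 13 members, 1 higher and 12 lower, the added one being Mgst2. Depth limits Gsta1, Gstm6, Gstp3 and Gstp2, which averaged 6.50 to 14.3 reads a library.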
